A study of Mus musculus with 15 samples.

Results

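The 7 genes described here encode the chains of the cartilage collagens, *Col2a1* (type II), *Col9a1*, *Col9a2* and *Col9a3* (type IX), *Col11a1* and *Col11a2* (type XI) and *Col27a1* (type XXVII). They were taken by name as a gene family, but with earlier results of these data known. All 7 were found among the 24134 genes of each count table. RNA sequencing was performed on primary articular chondrocytes of ICR mice, isolated from the knee joint surfaces of pups 4 to 5 days old and used at passage 0. In the siRNA table, 3 libraries came from cells transfected with control siRNA (siCtrl) and 3 from cells given siRNAs against both tankyrase genes, *Tnks* and *Tnks2* (siTnks/2). In the drug table, 3 libraries each came from cells held for 108 h in DMSO, in 10 μM XAV939 or in 10 μM IWR-1, a pair of tankyrase inhibitors. All 15 libraries are of cells with no engineered allele, grown in medium with 10% serum. The time between transfection and harvest is not given in the sources used here, and the labels do not say whether libraries of a group came from separate isolations of cells, so p-values measure the spread between these libraries.

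Type II collagen forms the bulk of the cartilage fibril, a homotrimer of the *Col2a1* chain. Type XI collagen lies in the fibril core and limits its diameter, and its trimer joins the *Col11a1* and *Col11a2* chains to a chain made from *Col2a1*. Type IX collagen, a trimer of the *Col9a1*, *Col9a2* and *Col9a3* chains, is bound to the fibril surface and links it to the surrounding matrix. Type XXVII is a fibril-forming collagen of thin fibrils in growing cartilage. The SOX9 transcription factor, with SOX5 and SOX6, drives many of these genes in chondrocytes. Cultured chondrocytes are known to lose this set and to gain type I and type III collagen when they take on a fibroblast-like state.

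The knockdown was visible in every library: *Tnks* measured 69.0, 58.4 and 70.1 CPM with siCtrl and 19.5, 12.7 and 24.0 with siTnks/2, and *Tnks2* 118, 119.6 and 115 against 58.2, 44.9 and 61.2. CPM are a gene's counts scaled to a library of 1e6 reads, with library sizes adjusted by TMM within each table. In the drug table the log2 fold change of *Tnks2* (edgeR, ± SE) was −0.41 ± 0.12 (adjusted p = 0.0394) with XAV939. With IWR-1 it was −0.27 ± 0.12 (adjusted p = 0.105), and −0.26 (adjusted p = 0.03) with the replicate number as a block. *Tnks* did not pass with XAV939 (−0.72 ± 0.42, adjusted p = 0.263) or IWR-1 (−0.19 ± 0.42, adjusted p = 0.754). Libraries held 26857070 to 36615194 counted reads, and the lowest count of any of the 7 collagen genes was 2524 reads (*Col27a1*, DMSO). Markers of the labelled cell type were present. Summed over 10 chondrocyte markers other than these collagens (*Sox9*, *Acan*, *Hapln1*, *Matn1*, *Matn3*, *Comp*, *Cnmd*, *Snorc*, *Cytl1*, *Chad*), the level was 15863 to 19329 CPM with siCtrl, 27155 to 38099 with siTnks/2, 3337 to 4855 with DMSO, 6102 to 10601 with XAV939 and 14079 to 18306 with IWR-1. Of the 10 markers, 6 rose with siTnks/2, 5 with XAV939 and 10 with IWR-1, where 10.4%, 7.57% and 16.2% of all genes tested were called higher, and 0 fell (of all genes 7.61%, 9.85% and 20.2%). Erythroid markers summed to at most 0.0356 CPM, endothelial ones to 6.88, muscle ones to 7.54, leukocyte ones to 44.4 and adipocyte ones to 49.7. A list of 8 fibroblast markers, all detected in every group, summed to 5587 to 9581 CPM with siCtrl, 2868 to 8086 with siTnks/2, 12216 to 15309 with DMSO, 6378 to 8368 with XAV939 and 5834 to 8794 with IWR-1. The summed level of these fibroblast markers was thus lower with either inhibitor than with DMSO, and overlapped between siCtrl and siTnks/2. Gene by gene, 4 of 8 fell and 0 rose with XAV939, and 5 of 8 fell and 1 rose with IWR-1. With siTnks/2 0 of 7 tested rose or fell. The shares of all genes called are those given above. *Col1a1*, *Col1a2* and *Col3a1* of this list are counted again below. Osteoblast markers (6 genes, mostly *Spp1*) summed to 1735 to 3304 CPM with siCtrl, 2197 to 5414 with siTnks/2, 6298 to 10488 with DMSO, 9931 to 10362 with XAV939 and 3108 to 3507 with IWR-1. Of the 6, 0 rose and 0 fell with siTnks/2, 2 and 0 with XAV939, and 3 and 1 with IWR-1. The median log2 fold changes were 0.42, 0.31 and 0.30, so the sum with IWR-1 does not stand for most of the list. The 4 hypertrophic markers, mostly *Mmp13*, summed to 753 to 836, 1564 to 2010.2, 12226 to 13884, 7475 to 11549 and 3409.9 to 3846 CPM in the same order of groups. Of these 4, 3 rose and 0 fell with siTnks/2, 2 and 0 with XAV939, and 3 and 1 with IWR-1. The 1 that fell was *Mmp13*, which made up most of the sum, while the median log2 fold changes were 0.90, 1.10 and 2.64. The shares of all genes called are those given above. Several of these counts changed in other fits, which are given further below. The part of any of these lists in the results below was not tested. Since these are bulk libraries, fewer cells of a type and less RNA per cell cannot be told apart.

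Together the 7 genes made up a large part of all reads. Their summed share was 9.37, 11.1 and 8.49% of the counted reads with siCtrl and 13.1, 17.4 and 11.5% with siTnks/2 (replicates 1, 2 and 3). With the drugs it was 2.50, 3.29 and 2.75% with DMSO, 4.01, 5.0 and 3.76% with XAV939 and 9.33, 10.8 and 8.76% with IWR-1. The treated libraries lay above their controls in all 3 comparisons, with means 1.45-fold (siTnks/2), 1.5-fold (XAV939) and 3.38-fold (IWR-1) the control mean, and the IWR-1 mean was 2.26-fold that of XAV939 (exact two-sided permutation test, p = 0.1 each, the smallest p that 3 libraries against 3 allow). As shares of a library are bounded by everything else in it, the gene-wise comparisons below use scaled counts. *Col2a1* alone took 2.09 to 13.1% of the reads and had more reads than any other gene in 13 of 15 libraries. The fibronectin gene *Fn1* was ahead of it in DMSO replicates 1 and 3.

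**Figure D1:**
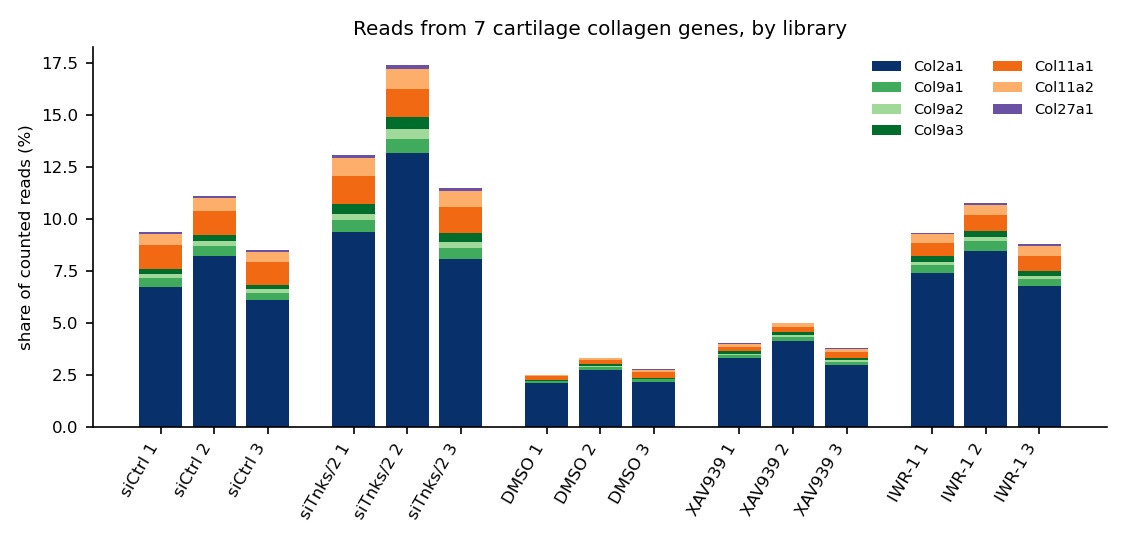
Stacked bars give the share of counted reads (%, axis from 0) of the 7 cartilage collagen genes in each of 15 libraries. The summed share runs from 2.50 to 3.29% in DMSO, from 8.76 to 10.8% in IWR-1 and from 11.5 to 17.4% in siTnks/2, and the dark *Col2a1* segment fills most of each bar.

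Replicate 2 stood apart in a regular way. Its *Col2a1* level was the highest of the 3 libraries in 5 of 5 groups, and over all 7 genes it was the highest in 32 of 35 gene and group combinations, the exceptions being *Col11a1*, *Col11a2* and *Col27a1* in DMSO. In the same libraries of the siRNA table *Col1a1*, a chain of type I collagen, was lowest, at 1830.3 CPM in siCtrl replicate 2 and 806 in siTnks/2 replicate 2. Libraries with the same replicate number mostly deviated together across the transcriptome as well. An exception was DMSO replicate 2, which followed replicate 1 of XAV939 and IWR-1 more closely than their replicate 2. Results are therefore given with the replicate number as a block, and without the libraries numbered 2, where that changes them.

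Levels of different genes were compared per kilobase of the longest coding transcript. The order of levels began with *Col2a1* and ended with *Col27a1* in all 5 groups. Per kilobase, *Col2a1* measured 13336 ± 2368 CPM with siCtrl (SD, n = 3), 20758 ± 6413 with siTnks/2, 4659.9 ± 873 with DMSO, 6702 ± 1479 with XAV939 and 14682 ± 1905 with IWR-1. *Col27a1* measured 116 ± 13.8, 235 ± 40.6, 14.6 ± 3.86, 41.9 ± 2.63 and 124 ± 12.3 CPM per kilobase in the same order of groups. Between these ends the type IX and type XI genes lay close together. With siCtrl the order was *Col11a1*, *Col9a1*, *Col11a2*, *Col9a3* and *Col9a2*, where only *Col11a1* stood clear of its lower neighbour and each of the next 3 overlapped the gene after it. With siTnks/2 *Col9a3* moved ahead of *Col9a1*, and no neighbours from *Col11a1* to *Col9a2* were apart. With DMSO the order was *Col9a1*, *Col11a1*, *Col9a3*, *Col11a2* and *Col9a2*, again with every neighbouring pair overlapping. XAV939 placed *Col9a3* clear above *Col11a1*, and IWR-1 placed *Col11a2* clear above *Col9a2*. The positions of *Col2a1* and *Col27a1* were the same with the union of exons as the length, a measure added after the data were seen, while those of the type IX and XI genes partly changed. As a share of the summed level per kilobase, *Col2a1* made up 72.7 ± 1.06% with siCtrl, 71.6 ± 2.39% with siTnks/2, 81.0 ± 2.78% with DMSO, 79.3 ± 2.23% with XAV939 and 77.5 ± 0.660% with IWR-1 (SD, n = 3).

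The sequence before the start of transcription was examined because the changes of the 7 genes shared a direction, though not all of them passed the test. RefSeq promoter windows of GRCm38.p6 were at hand for 5 of the 7 genes (*Col9a1*, with 2 start sites, *Col9a2*, *Col11a1*, *Col11a2* and *Col27a1*). *Col2a1* and *Col9a3* had none. The windows of 250 bases upstream of the start, all on the plus strand, are shown for the gene with the greatest change with both inhibitors, the chain with the smallest change with siTnks/2 and XAV939, and the start of a type IX chain, with every GGGCGG (the core of a GC box, searched on both strands) in capitals. The *Col27a1* window lies inside the GENCODE span of the gene and, like the other windows shown, covers no exon base.

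Col27a1, chr4:63215162-63215411: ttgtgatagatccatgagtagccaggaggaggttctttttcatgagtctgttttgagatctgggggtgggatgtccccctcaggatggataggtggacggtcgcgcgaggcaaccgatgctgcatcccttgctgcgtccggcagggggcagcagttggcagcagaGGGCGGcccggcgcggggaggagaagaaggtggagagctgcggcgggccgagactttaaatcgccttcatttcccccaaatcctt
Col11a1, chr3:114030290-114030539: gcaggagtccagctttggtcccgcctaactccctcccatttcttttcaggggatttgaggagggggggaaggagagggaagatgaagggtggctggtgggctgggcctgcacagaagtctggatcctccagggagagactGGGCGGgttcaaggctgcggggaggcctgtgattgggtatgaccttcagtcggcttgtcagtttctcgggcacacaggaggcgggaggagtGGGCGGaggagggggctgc
Col9a1, chr1:24177360-24177609: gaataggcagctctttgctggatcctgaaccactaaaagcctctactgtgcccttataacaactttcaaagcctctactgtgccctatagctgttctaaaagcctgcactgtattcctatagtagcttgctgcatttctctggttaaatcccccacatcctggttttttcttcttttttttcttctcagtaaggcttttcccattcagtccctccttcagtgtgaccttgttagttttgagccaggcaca

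The *Col27a1* window has 1 GC box core, which begins 85 bases before the start, the *Col11a1* window has 2, at 110 and 19 bases, and the *Col9a1* window has none. *Col9a2* and *Col11a2* have 2 each, so that 4 of 6 windows hold one, against 32.7% of 32851 windows of all genes. In the *Col9a2* window 181 of the 250 bases, those with the GC box cores included, lie in annotated exons. The SOX core ACAAT and the longer ACAAAG, searched on both strands, were found in none of the 6 windows and in 27.7% and 16.5% of all windows. A TATAAA was found in the *Col11a2* window only (12.4% of all windows). GC content was 43.6% in the *Col9a1* window shown and 56.0 to 62.4% in the other 5, against a median of 52.4%. These are matches of letters in a short window, and known enhancers of these genes that lie outside it were not examined.

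The siRNA comparison asked how partial knockdown of both tankyrases changes the matrix genes of chondrocytes, and the drug comparisons asked the same of XAV939 and IWR-1. *Col9a2*, *Col9a3*, *Col11a2* and *Col27a1* rose in all 3 comparisons. *Col2a1*, *Col9a1* and *Col11a1* rose with IWR-1 and did not pass the test with siTnks/2 or XAV939 in the fit without a replicate block. *Col2a1* (gene ID 12824, chr15:97975602-98004695, minus strand, mm10) measured 64633, 81498 and 58071 CPM with siCtrl and 94951, 142759.6 and 80131 with siTnks/2. Each knockdown library lay above the siCtrl library of the same number, but siTnks/2 replicate 3 lay below siCtrl replicate 2, and the change of 0.64 ± 0.27 (adjusted p = 0.14) did not reach an adjusted p of 0.05 (changes are log2 fold changes ± SE). With DMSO, XAV939 and IWR-1 the levels were 21554, 28917 and 20881, then 32339, 42518 and 27767, then 72813, 85544 and 66454 CPM. XAV939 replicate 3 lay inside the DMSO range and the change of XAV939 did not pass, at 0.52 ± 0.21 (adjusted p = 0.118). The IWR-1 libraries stood clear of both other groups, and *Col2a1* rose by 1.66 ± 0.22 (adjusted p = 0.000194), 3.15-fold on a linear scale. With the replicate number as a block, *Col2a1* passed with knockdown (0.61, adjusted p = 0.0263) and with XAV939 (0.52, adjusted p = 0.00668).

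**Figure D2:**
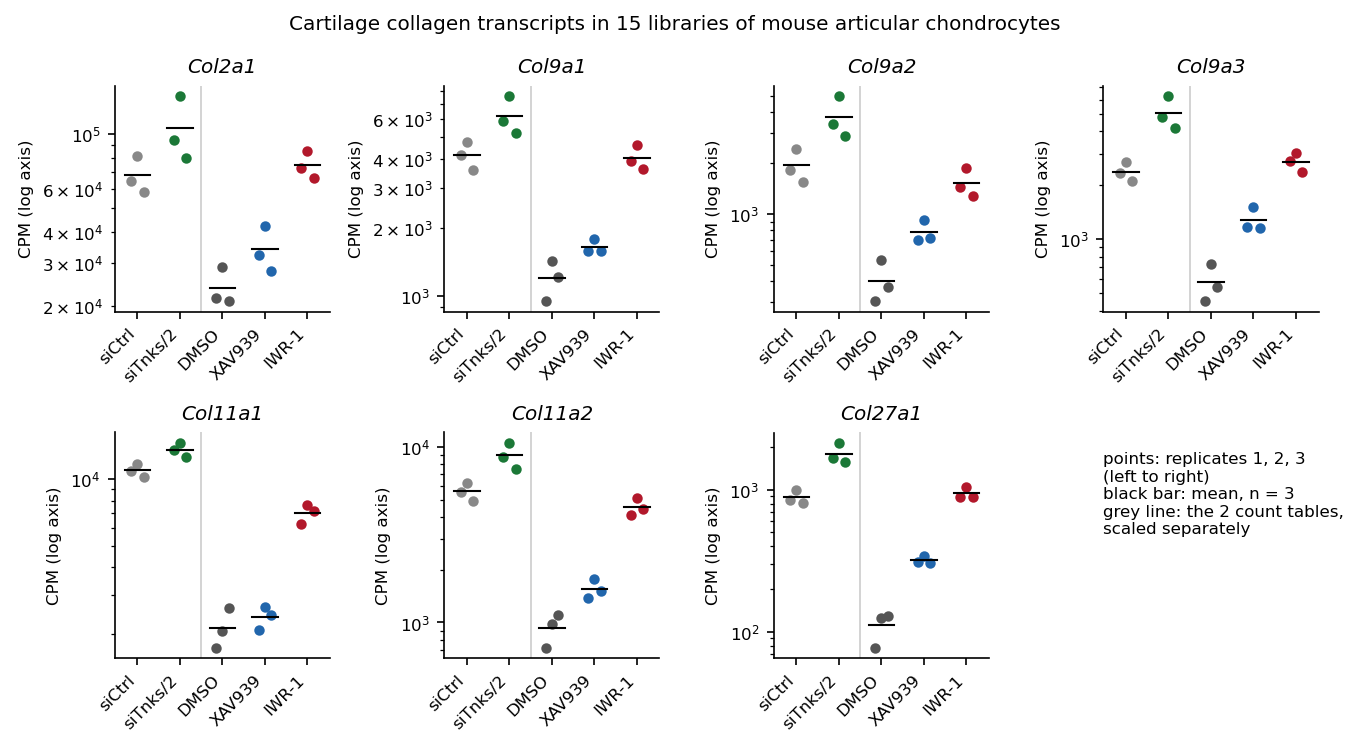
Each panel plots the CPM of 1 cartilage collagen gene (log axis) in the 3 libraries of each group, with a bar at the mean and a grey line between the siRNA and the drug table, which were scaled separately. Replicate 2 is the highest in most groups, and the IWR-1 libraries lie above all DMSO and XAV939 libraries for every gene.

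The type IX chains changed by unequal amounts. *Col9a3* (gene ID 12841, chr2:180597790-180622189, plus strand) showed the greatest change of the 3 and measured 2328, 2704 and 2099.8 CPM with siCtrl and 4773, 6256 and 4152 with siTnks/2. The groups were well apart, and the rise was 1.09 ± 0.18 (adjusted p = 0.0114). Among the drug libraries it measured 450.2, 729.7 and 544 CPM with DMSO, 1165, 1517 and 1157 with XAV939 and 2714, 3037 and 2372 with IWR-1, 3 groups with no overlap. *Col9a3* rose by 1.16 ± 0.19 (adjusted p = 0.00253) with XAV939 and by 2.24 ± 0.20 (adjusted p = 1.58e-05) with IWR-1. The gene overlaps *Tcfl5* of the opposite strand by 234 bp, but *Tcfl5* had at most 352 counts in a library, against at least 14765 for *Col9a3*. *Col9a2* (gene ID 12840, chr4:121039385-121055322, plus strand) followed *Col9a3*. It measured 1817, 2432 and 1553 CPM with siCtrl, 3382, 4957 and 2877 with siTnks/2, and it rose by 0.95 ± 0.24 (adjusted p = 0.0399). DMSO, XAV939 and IWR-1 gave 304, 532 and 367, then 698, 917 and 722, then 1442, 1858 and 1279 CPM, without overlap, a rise of 0.96 ± 0.22 (adjusted p = 0.0124) with XAV939 and of 1.93 ± 0.22 (adjusted p = 7.79e-05) with IWR-1. *Col9a1* (gene ID 12839, chr1:24177610-24252684, plus strand) changed least with knockdown and XAV939. With siCtrl it was at 4171, 4746 and 3581 CPM and with siTnks/2 at 5872, 7567 and 5196, groups that did not overlap but whose fold change of 0.58 ± 0.17 (adjusted p = 0.0605) missed the threshold. Its levels were 948, 1432 and 1219 CPM with DMSO, 1577, 1781 and 1577 with XAV939 and 3911, 4633 and 3617 with IWR-1. All 3 XAV939 libraries again lay above all 3 DMSO libraries, with a change of 0.46 ± 0.17 (adjusted p = 0.0827), also short of the threshold, whereas IWR-1 raised *Col9a1* by 1.76 ± 0.17 (adjusted p = 2.66e-05). The block brought *Col9a1* past the threshold with knockdown (0.57, adjusted p = 0.00669) and with XAV939 (0.47, adjusted p = 0.00913).

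Of the type XI chains, *Col11a2* rose in all 3 comparisons and *Col11a1* in 1. *Col11a1* (gene ID 12814, chr3:114030540-114220718, plus strand) measured 10904, 11709.6 and 10231 CPM with siCtrl and 13476, 14602 and 12637 with siTnks/2. The groups were apart by little, and the change of 0.31 ± 0.12 (adjusted p = 0.111) was the smallest of the 7. In the drug table it measured 1725, 2066 and 2604 CPM with DMSO and 2080.4, 2647 and 2442 with XAV939, groups that overlapped, with DMSO replicate 3 above XAV939 replicate 3. The change was 0.16 ± 0.17 (adjusted p = 0.541), with a 95% interval of −0.21 to 0.54. IWR-1 gave 6263, 7617 and 7160.3 CPM, clear of both, and a rise of 1.72 ± 0.18 (adjusted p = 3.66e-05). *Col11a2* (gene ID 12815, chr17:34039437-34066685, plus strand) measured 5531, 6222 and 4933 CPM with siCtrl and 8763, 10522 and 7465 with siTnks/2, and rose by 0.68 ± 0.16 (adjusted p = 0.0308). It went from 717, 980.3 and 1102 CPM with DMSO to 1372, 1779 and 1518 with XAV939 and 4071, 5136 and 4414 with IWR-1. No groups overlapped, and the rise was 0.74 ± 0.18 (adjusted p = 0.017) with XAV939 and 2.28 ± 0.19 (adjusted p = 1.01e-05) with IWR-1. With the block *Col11a1* passed with knockdown (0.31, adjusted p = 0.039) but not with XAV939 (0.17, adjusted p = 0.275).

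*Col27a1* (gene ID 373864, chr4:63214004-63334991, plus strand), the chain of type XXVII collagen and the lowest of the 7 in level per kilobase, had the greatest fold changes with both inhibitors. It measured 846, 1003 and 804 CPM with siCtrl and 1663, 2143 and 1566 with siTnks/2. Every knockdown library was above every control library, and the rise was 1.02 ± 0.15 (adjusted p = 0.0084), 2.03-fold. Of the drug groups, *Col27a1* was at 77.0, 126 and 129.8 CPM with DMSO, at 309.7, 342 and 305 with XAV939 and at 888, 1052 and 893 with IWR-1. The 3 groups were far apart compared with the spread inside each, which was widest for DMSO, where replicate 1 was low. The rise was 1.53 ± 0.18 (adjusted p = 0.000427) with XAV939, 2.88-fold, and 3.09 ± 0.19 (adjusted p = 2.61e-06) with IWR-1, 8.52-fold. Ranked by reads among all genes, *Col27a1* went from position 1316 to 2419 over the DMSO libraries to 392 to 421 with XAV939 and 90 to 115 with IWR-1. By log2 fold change it was gene 66 of 13873 with IWR-1 and gene 149 with XAV939.

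**Figure D3:**
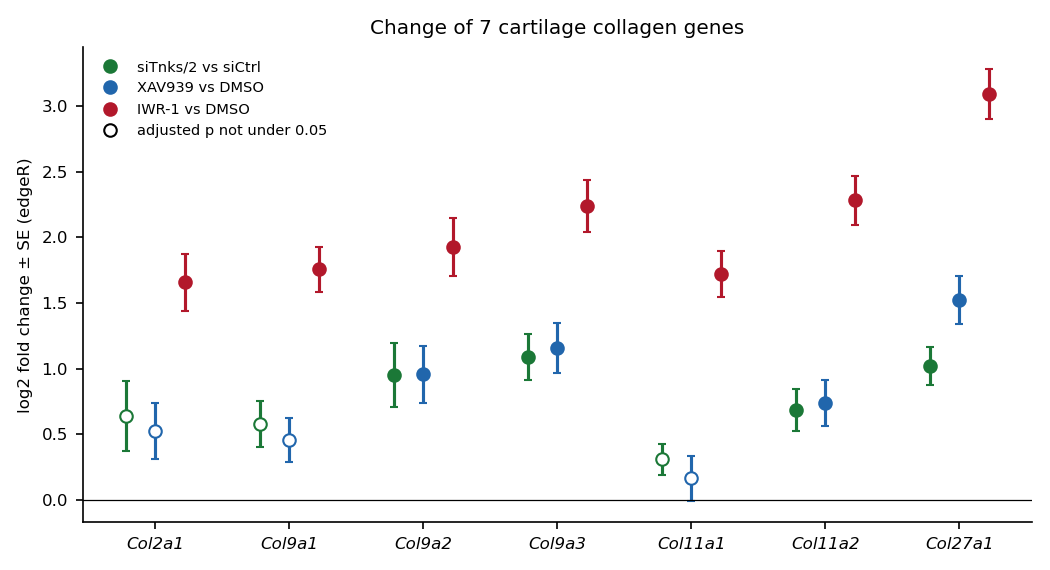
Log2 fold changes against the control of the same table (points) with their SE (bars) are shown for the 7 genes and 3 comparisons, filled where the adjusted p was under 0.05. All 21 points are above 0, the IWR-1 points lie between 1.66 and 3.09, and the unfilled points are *Col2a1*, *Col9a1* and *Col11a1* with siTnks/2 and XAV939.

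Counted over the set, 4 of 7 genes rose with siTnks/2 (*Col9a2*, *Col9a3*, *Col11a2* and *Col27a1*), where 10.4% of 13672 genes tested were called higher. With XAV939 the same 4 of 7 rose, against 7.57% of 13873 genes, and with IWR-1 7 of 7, against 16.2%. None of the 7 was called lower, against 7.61%, 9.85% and 20.2% of all genes. Their median change was 0.68, 0.74 and 1.93, where the median of all genes was −0.0012, 0.016 and 0.0056. All 3 treated libraries lay above all 3 controls for 6 of 7 genes with siTnks/2 (*Col2a1* overlapped), 5 of 7 with XAV939 and 7 of 7 with IWR-1. This held for 21.6%, 16.4% and 24.7% of all genes tested. When a change of more than 3-fold with an adjusted p under 1e-05 was required, only *Col27a1* with IWR-1 remained, among 0.296% of genes. With siTnks/2 and with XAV939 0 of all genes tested passed that limit as higher. XAV939 and IWR-1 were each set against the same 3 DMSO libraries, so their counts are not independent.

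With the replicate number as a block, the count was 7 of 7 with siTnks/2 (18.1% of all genes), 6 of 7 with XAV939 (16%, where *Col11a1* did not pass) and 7 of 7 with IWR-1 (22.2%). Without the libraries numbered 2, an alternative added after the data were seen, the count was 7 (14.4%), 3 (3.03%) and 7 (11.8%), and *Col11a2* was lost with XAV939. Leaving out a single library left 1 to 5 genes with siTnks/2. Only *Col27a1* passed without siCtrl replicate 1 or without siCtrl replicate 3, and *Col27a1* and *Col9a3* without siCtrl replicate 2 or siTnks/2 replicate 1. With XAV939 2 to 5 genes passed, 2 of them (*Col9a3*, *Col27a1*) without DMSO replicate 1. With IWR-1 all 7 genes passed whichever library was left out. No shares of all genes called are given for the fits without a single library.

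XAV939 and IWR-1 were given at the same dose and time and could be compared directly. All 7 genes were higher with IWR-1 than with XAV939, where 7.37% of genes tested were called higher and 10.2% lower, and no library of one group reached into the other (18.2% of all genes). The count was also 7 with the block (14.1%) and without the libraries numbered 2 (3.47%). *Col11a1*, *Col11a2* and *Col27a1* differed by nearly the same amount, 1.55 ± 0.18 (adjusted p = 0.000335), 1.54 ± 0.18 (adjusted p = 0.0004) and 1.57 ± 0.18 (adjusted p = 0.000389). The differences of *Col9a1* (1.30), *Col2a1* (1.13), *Col9a3* (1.08) and *Col9a2* (0.97) were smaller, with *Col9a2* the least secure (± 0.22, adjusted p = 0.0111, and 0.0541 without IWR-1 replicate 2).

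The effects of the inhibitors were also set against the effect of the knockdown in 1 model of all 15 libraries, in which the kind of treatment and the table cannot be told apart. For XAV939 0 of 7 genes differed from the knockdown (5.4% of 14271 genes were called higher and 8.07% lower), and the differences in log2 fold change ran from −0.16 (*Col11a1*) to 0.49 (*Col27a1*). The sign of the difference was not stable for 6 of the 7 genes, *Col27a1* being the exception, when single libraries were left out. None of the 7 had an unadjusted p under 0.05 in this fit. DESeq2's Wald test also called 0, for which no share of all genes is given. The 95% intervals were −0.87 to 0.61 for *Col2a1* and −0.046 to 1.03 for *Col27a1*. With the block *Col27a1* rose more with XAV939 than with knockdown (0.53, adjusted p = 0.0433), 1 of 7 genes where 12.7% of all genes passed. Without the libraries numbered 2 the count was 0 (2.74%). For IWR-1 6 of 7 genes rose more than with knockdown, against 10.5% of all genes (lower 13.9%), and 7 of 7 with the block (17%) or without the libraries numbered 2 (8.02%). The differences were 2.06 ± 0.25 (adjusted p = 5.91e-05) for *Col27a1*, 1.59 for *Col11a2*, 1.40 for *Col11a1*, 1.17 for *Col9a1*, 1.14 for *Col9a3* and 1.01 ± 0.35 (adjusted p = 0.0473) for *Col2a1*. *Col9a2* had a difference of 0.97 ± 0.34 (adjusted p = 0.054), just short of the threshold, and passed with the block (1.0, adjusted p = 0.000165). The call of *Col2a1* was lost without any 1 of 11 libraries, with adjusted p from 0.0513 (siCtrl replicate 3) to 0.119 (IWR-1 replicate 2).

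Ratios between chains were formed within each library from counts per kilobase, so that the scaling of libraries cancels. Across 8 ratios and 4 comparisons (32 tests), 22 had libraries that did not overlap. How often ratios of other genes do so was not computed, so this count has no background. The 32 tests share chains and libraries and are not independent. With 3 libraries against 3 the exact two-sided permutation p cannot go below 0.1, and the smallest value adjusted over the 32 tests was 0.145. None of the ratios could therefore pass 0.05, and they are given as sizes and ranges.

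Within type IX, the *Col9a1* to *Col9a3* ratio was 1.42, 1.39 and 1.35 with siCtrl and 0.977, 0.961 and 0.994 with siTnks/2. It was 1.67, 1.56 and 1.78 with DMSO, 1.08, 0.933 and 1.08 with XAV939 and 1.15, 1.21 and 1.21 with IWR-1. All treated libraries were lower than their controls, with differences of −0.51, −0.70 and −0.49 on the log2 scale. Per kilobase, *Col9a1* transcripts exceeded those of *Col9a3* in every control library and fell just below them in every siTnks/2 library. The *Col9a1* to *Col9a2* ratio differed by −0.37 and −0.51 (log2) without overlap, while with IWR-1 the groups overlapped at −0.18. *Col9a3* relative to *Col9a2* differed by 0.14 with siTnks/2, where libraries overlapped, and by 0.19 and 0.31 with XAV939 and IWR-1, where they did not.

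Within type XI the pattern was the same in kind. The *Col11a1* to *Col11a2* ratio was 1.56, 1.48 and 1.64 with siCtrl and 1.21, 1.09 and 1.34 with siTnks/2. It was 1.90, 1.66 and 1.86 with DMSO, 1.20, 1.17 and 1.27 with XAV939 and 1.21, 1.17 and 1.28 with IWR-1. The treated ratios differed from the controls by −0.36, −0.57 and −0.56 (log2), without overlap. XAV939 and IWR-1 ended at much the same ratio, 1.21 ± 0.0495 and 1.22 ± 0.0553 (SD, n = 3). This restates that *Col11a1* was 2.94-fold and *Col11a2* 2.92-fold higher with IWR-1 than with XAV939. With the union of exons as the length the ratio crossed 1, from 1.07 to 0.830 with knockdown and from 1.24 to 0.829 with XAV939, so that which chain is in excess depends on the length used.

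Relative to *Col2a1*, the summed type IX level was 0.195, 0.185 and 0.189 with siCtrl and 0.229, 0.205 and 0.236 with siTnks/2. In the drug table it was 0.118, 0.140 and 0.152 with DMSO, 0.163, 0.153 and 0.191 with XAV939 and 0.169, 0.169 and 0.166 with IWR-1. The treated libraries were above their controls in each comparison, though XAV939 by the narrowest of margins (lowest 0.153 against a highest DMSO value of 0.152), with differences of 0.23, 0.31 and 0.30 (log2). Type XI relative to *Col2a1* overlapped in all 4 comparisons, with differences of −0.15, −0.11 and 0.30 against the controls. *Col27a1* gained on *Col2a1* by 0.40, 1.04 and 1.46, and its libraries did not overlap. The ratio of *Col2a1* to *Col1a1*, often used as a mark of the chondrocyte state, was 24.1, 51.7 and 18.5 with siCtrl and 44.6, 206 and 31.7 with siTnks/2. The groups overlapped, but within the pairs of the same replicate number the ratio was higher with siTnks/2 in 3 of 3, by 0.89, 1.99 and 0.78 (log2). For the drugs it was 4.13, 6.12 and 3.85 with DMSO, 16.0, 19.3 and 10.5 with XAV939 and 44.9, 53.5 and 25.2 with IWR-1. These 3 groups were apart, at 1.69 for XAV939 and 3.09 for IWR-1 (log2). *Col1a1* fell by 1.16 ± 0.20 (adjusted p = 0.00323) with XAV939 and by 1.39 ± 0.20 (adjusted p = 0.000362) with IWR-1. Both sides of that ratio thus moved with IWR-1. With XAV939 the *Col2a1* side, at 0.52 ± 0.21, did not pass in the fit without a block (adjusted p = 0.118).

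**Figure D4:**
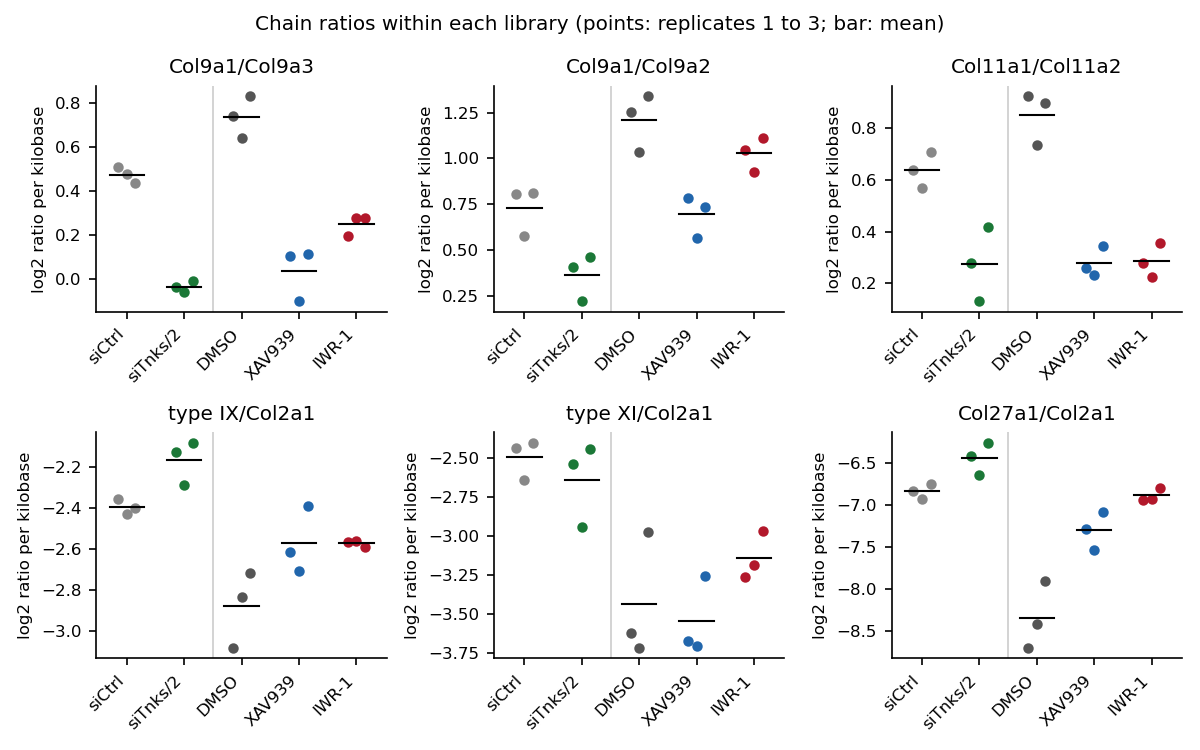
Each panel plots 1 ratio of chain levels (log2 of counts per kilobase) in the 3 libraries of each group, with a bar at the mean. The *Col9a1*/*Col9a3* and *Col11a1*/*Col11a2* points drop from control to treated in both tables, the type XI/*Col2a1* points overlap, and the *Col27a1*/*Col2a1* points climb from DMSO to XAV939 to IWR-1.

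The SOX trio known to drive these genes was read at the transcript level. *Sox9* measured 174, 204 and 178 CPM with siCtrl and 182, 221 and 181 with siTnks/2, which overlapped, at 0.068 ± 0.10 (adjusted p = 0.68). With DMSO, XAV939 and IWR-1 it measured 101, 121 and 118, then 129, 161 and 141, then 222, 247 and 215 CPM. XAV939 libraries were above DMSO but the change of 0.34 ± 0.12 (adjusted p = 0.0677) did not pass, and with IWR-1 *Sox9* rose by 1.01 ± 0.12 (adjusted p = 8.17e-05). *Sox6* showed −0.036 ± 0.068 (adjusted p = 0.739) with knockdown, 0.16 ± 0.10 (adjusted p = 0.303) with XAV939 and a rise of 0.91 ± 0.10 (adjusted p = 7.91e-05) with IWR-1. *Sox5* passed in none of the 3 comparisons (0.12, −0.042 and −0.22). With the block, *Sox9* also passed with XAV939 (0.34, adjusted p = 0.0113), and still 0 of 3 SOX genes passed with siTnks/2, where *Sox9* was at 0.065 (adjusted p = 0.304).

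The counts of the lists below stand beside the shares of all genes called. Over all genes, 10.4% were called higher and 7.61% lower with siTnks/2, 7.57% and 9.85% with XAV939, and 16.2% and 20.2% with IWR-1. With the replicate block these shares were 18.1% and 16.5%, 16% and 17.4%, and 22.2% and 25.3%. The marker counts given above moved with the block. Chondrocyte markers had 8 rises with siTnks/2 and 10 with XAV939, with 0 falls. Fibroblast markers had 0 rises and 2 falls with siTnks/2, 1 and 5 with XAV939, and 1 and 6 with IWR-1. Osteoblast markers had 3 rises and 0 falls with siTnks/2 and with XAV939. Hypertrophic markers had 4 rises and 0 falls with siTnks/2, and 2 and 1 with XAV939. Without the libraries numbered 2 the shares of all genes were 14.4% and 12.9%, 3.03% and 5%, and 11.8% and 15%. In that fit chondrocyte markers had 9 rises with siTnks/2 and 6 with XAV939, with 0 falls. Fibroblast markers had 1 rise and 2 falls with siTnks/2, 0 and 2 with XAV939, and 0 and 4 with IWR-1. Osteoblast markers had 2 rises and 0 falls with siTnks/2, and hypertrophic markers 4 and 0. Counts of these marker lists not named here were the same as in the fit without a block.

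Among 18 genes for proteins that bind or accompany the fibril, 6 rose and 1 fell with siTnks/2, 5 rose and 2 fell with XAV939, and 6 rose and 3 fell with IWR-1 (median log2 fold change 0.58, 0.28 and 0.39). Of all genes 10.4% and 7.61%, 7.57% and 9.85% and 16.2% and 20.2% were called higher and lower. The falls were thus near the share of all genes in each comparison. With the replicate block 10 rose and 2 fell with siTnks/2, 8 and 3 with XAV939, and 11 and 3 with IWR-1. When the libraries numbered 2 were left out, 11 rose and 2 fell with siTnks/2, 4 and 2 with XAV939, and 7 and 2 with IWR-1. *Acan*, *Chad*, *Comp*, *Hapln1*, *Matn1* and *Matn3* of this list also stand among the chondrocyte markers above. With siTnks/2 *Chad*, which encodes the collagen-binding protein chondroadherin, rose by 2.39 ± 0.35 (adjusted p = 0.00864) and *Comp*, whose product helps assemble fibrils, by 0.84 ± 0.14 (adjusted p = 0.0118). The same pair rose with XAV939, by 1.22 ± 0.28 (adjusted p = 0.0134) and 1.02 ± 0.23 (adjusted p = 0.0124). With IWR-1 *Acan*, the gene of the proteoglycan aggrecan, rose by 2.95 ± 0.24 (adjusted p = 1.12e-05) and *Matn3*, a matrilin that bridges fibrils and aggrecan, by 2.54 ± 0.26 (adjusted p = 3.41e-05). *Lum* and *Dcn*, small proteoglycans on collagen fibrils of many tissues, had changes of −1.51 ± 0.17 (adjusted p = 7.61e-05) and −1.29 ± 0.21 (adjusted p = 0.000698) with IWR-1 and so fell. *Thbs1*, a thrombospondin, fell by 0.96 ± 0.22 (adjusted p = 0.0284) with siTnks/2.

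Of the genes that modify, secrete and cross-link collagen, 5 of 35 rose and 0 fell with siTnks/2, 3 of 36 rose and 13 fell with XAV939, and 8 of 36 rose and 13 fell with IWR-1 (medians 0.12, −0.22 and −0.073). Against 10.4% and 7.61%, 7.57% and 9.85% and 16.2% and 20.2% of all genes called higher and lower, the rises with siTnks/2 and XAV939 were near the share of all genes. With the replicate block 14 rose and 4 fell with siTnks/2, 3 and 14 with XAV939, and 11 and 14 with IWR-1. When the libraries numbered 2 were left out, 11 rose and 4 fell with siTnks/2, 2 and 6 with XAV939, and 7 and 11 with IWR-1. *Pcolce2*, an enhancer of procollagen C-proteinase, rose in all 3 comparisons, by 0.96 ± 0.071 (adjusted p = 0.00274), 1.34 ± 0.19 (adjusted p = 0.000987) and 2.78 ± 0.20 (adjusted p = 4.12e-06). The lysyl oxidase family, which cross-links collagen, was split. *Loxl3* and *Loxl4* rose with IWR-1 by 1.56 ± 0.13 (adjusted p = 1.12e-05) and 2.58 ± 0.20 (adjusted p = 7.64e-06), and with XAV939 by 1.21 ± 0.13 (adjusted p = 0.000206) and 0.66 ± 0.19 (adjusted p = 0.0362). *Lox* went from 4793 ± 592 CPM with DMSO to 1890.1 ± 398 with XAV939 and 1029 ± 210.1 with IWR-1 (SD, n = 3), changes of −1.34 ± 0.20 (adjusted p = 0.00146) and −2.22 ± 0.21 (adjusted p = 2.03e-05). *P4ha2*, a subunit of the prolyl 4-hydroxylase that stabilizes the triple helix, fell by 0.74 ± 0.12 (adjusted p = 0.00233) with XAV939 and by 1.12 ± 0.12 (adjusted p = 5.49e-05) with IWR-1. *Plod1*, a lysyl hydroxylase, fell by 1.11 ± 0.12 (adjusted p = 6.12e-05) with IWR-1.

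Genes for collagen breakdown and its inhibitors showed 3 rises and 1 fall among 11 tested with siTnks/2, 1 and 1 with XAV939, and 1 and 7 with IWR-1 (medians 0.21, −0.35 and −0.72). Of all genes 10.4% and 7.61%, 7.57% and 9.85% and 16.2% and 20.2% were called higher and lower, so the XAV939 counts were near the shares of all genes. With the replicate block 5 rose and 2 fell with siTnks/2, 2 and 6 with XAV939, and 3 and 7 with IWR-1. When the libraries numbered 2 were left out, 5 rose and 1 fell with siTnks/2, 1 and 0 with XAV939, and 1 and 6 with IWR-1. *Mmp13*, the main collagenase for type II collagen, rose with siTnks/2 by 0.98 ± 0.10 (adjusted p = 0.00384) and fell by 1.96 ± 0.18 (adjusted p = 1.77e-05) with IWR-1. *Mmp3*, stromelysin-1, went from 9843 ± 334 CPM with DMSO to 1124 ± 246 with IWR-1 (SD, n = 3), a change of −3.13 ± 0.21 (adjusted p = 3.11e-06). *Timp3*, an inhibitor of matrix metalloproteinases, rose with IWR-1 by 1.94 ± 0.19 (adjusted p = 2.97e-05). No test of the difference between the knockdown and IWR-1 effects is given for these genes.

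Of the collagens typical of fibroblast-like cells, 4 of 6 fell with each inhibitor and 0 rose, where 9.85% of all genes were called lower with XAV939 and 20.2% with IWR-1. Of these genes (*Col1a1*, *Col1a2*, *Col3a1*, *Col5a1*, *Col5a2*, *Col5a3*), 0 rose and 0 fell with siTnks/2, and the median change was −0.34, −0.83 with XAV939 and −1.27 with IWR-1. With the replicate block 1 rose and 2 fell with siTnks/2, 0 and 6 with XAV939, and 0 and 5 with IWR-1. When the libraries numbered 2 were left out, 1 rose and 2 fell with siTnks/2, 0 and 3 with XAV939, and 0 and 4 with IWR-1. The gene that rose with siTnks/2 in both was *Col5a3*, and those that fell were *Col3a1* and *Col5a2*. *Col3a1* fell by 1.18 ± 0.22 (adjusted p = 0.00516) with XAV939 and by 1.54 ± 0.23 (adjusted p = 0.000363) with IWR-1, and *Col5a2* changed by −1.02 ± 0.19 (adjusted p = 0.00446) and −1.34 ± 0.19 (adjusted p = 0.00029). *Col1a1* after knockdown had a change of −0.47 ± 0.47 (adjusted p = 0.516), with siTnks/2 replicate 2 at 806 CPM and the other 2 libraries at 2474 and 2934. Over the remaining collagen genes, 9 of 28 rose and 1 fell with siTnks/2, 3 of 24 rose and 1 fell with XAV939, and 7 of 24 rose and 2 fell with IWR-1 (medians 0.33, 0.29 and 0.16). Beside the 10.4% and 7.61%, 7.57% and 9.85% and 16.2% and 20.2% of all genes called higher and lower, the falls in this fit were below the share of all genes. With the replicate block 12 rose and 5 fell with siTnks/2, 7 and 3 with XAV939, and 10 and 5 with IWR-1. The 5 falls of 28 with siTnks/2 were then near the 16.5% of all genes called lower. When the libraries numbered 2 were left out, 13 rose and 3 fell with siTnks/2, 1 and 1 with XAV939, and 6 and 0 with IWR-1. *Col10a1*, the collagen of hypertrophic chondrocytes, rose with siTnks/2 by 1.44 ± 0.24 (adjusted p = 0.0117) and with the inhibitors by 1.38 ± 0.13 (adjusted p = 0.000122) and 3.07 ± 0.14 (adjusted p = 6.89e-07). *Col12a1*, a fibril-associated collagen of dense connective tissue, changed by −1.41 ± 0.29 (adjusted p = 0.00802) and −0.91 ± 0.29 (adjusted p = 0.0308).

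As a description of how closely the 7 genes moved together, log2 CPM of the 15 libraries were correlated after the mean of each table was taken off. These libraries form groups, and treatment and replicate number are shared by all genes, so no p is given. Pearson's r over the 21 pairs of genes lay between 0.835 (*Col9a2* with *Col11a1*) and 0.990 (*Col9a2* with *Col9a3*), with a median of 0.956. *Col9a1* was closer to *Col11a2* (0.987) than to its partners in type IX, *Col9a2* (0.956) and *Col9a3* (0.955). *Col2a1* correlated with *Sox9* at 0.940, with *Sox6* at 0.805 and with *Sox5* at −0.389. Among 13335 genes outside the set, those most like *Col2a1* were *Ctdspl* (0.988), *Mknk1* (0.981), *Asrgl1* (0.976), *Spg20* (0.973) and *Zfp385b* (0.972). Those most like the mean of the 7 genes were *Acan* (0.995), *Gfpt2* (0.995), *Papss2* (0.992), *Mknk1* (0.986) and *Scin* (0.983). Aggrecan, the product of *Acan*, is the main proteoglycan between the fibrils, *Papss2* makes the sulfate donor for its chains, and *Gfpt2* makes glucosamine phosphate for their sugars. When the mean of each group was taken off instead, 0 of the 5 genes listed for *Col2a1* recurred. Of those listed for the mean of the 7 genes, *Gfpt2* (0.946) and *Scin* (0.935) recurred, and *Acan*, *Papss2* and *Mknk1* did not.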

How the data were processed

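RNA was sequenced from 15 libraries of primary mouse articular chondrocytes. According to the submitters' processing notes, the tools used by the authors were Trimmomatic 0.32 for trimming, TopHat2 2.0.13 for alignment (build mm10) and HTSeq 0.6.1p1 for counting. The annotation and the strand setting are not given in the sources used here. The deposited values are raw counts per gene, not normalized, for 24134 gene IDs in each of 2 tables. Of these IDs, 24051 were matched to symbols through RefSeq and 83 were not. Each library was mapped to its group by the labels. The siRNA libraries held 26857070 to 31254278 counts and the drug libraries 27438611 to 36615194, a depth at which counting error was small beside the spread between libraries.

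Counts were filtered with filterByExpr, scaled by TMM and tested within each table with the quasi-likelihood F test of edgeR 4.0.16 (R 4.3.3), with Benjamini-Hochberg adjustment over all genes tested and a threshold of 0.05. SE was derived from the F statistic. A model of all 15 libraries gave the differences between effects. Shares and ratios were compared by exact two-sided permutation tests. The scripts were tested on simulated data. Gene positions and lengths came from GENCODE M21 (GRCm38), and promoter sequences from RefSeq (GRCm38.p6).

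Replicate numbers, given in the labels and column names, were taken as pairs for the block. Deviations from the group means correlated at 0.424 to 0.519 in the 3 same-numbered siRNA pairs and at 0.143 to 0.553 in the 9 drug pairs. For different numbers they reached at most 0.0972 and 0.318. As deviations within a group cancel, values for different numbers are lowered by construction. DMSO replicate 2 did not follow its number: r was 0.143 with XAV939 replicate 2 and 0.244 with IWR-1 replicate 2. With replicate 1 of these groups it was 0.318 and 0.316. The labels do not state a pairing, and the block results depend on it. Alternatives were RLE and upper-quartile scaling, scaling without the 7 genes, other filters, DESeq2 1.42.0, glmTreat, a replicate block, fits of only 2 groups and leaving out libraries. The genes named were the 7 collagens, both tankyrases, the SOX trio, *Col1a1*, genes among the 3 with the smallest p each way in each list, and the 5 genes most like *Col2a1* or the mean of the 7. *Fn1* and *Tcfl5* were named after their values were seen. The members and lists were chosen with earlier results of these data known.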

Additional observations from a re-analysis of the deposited data

Results flagged for a closer look

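For 6 of the 7 collagen genes the effect of IWR-1 differed from that of the knockdown in the model of all 15 libraries (edgeR, adjusted over all genes). The IWR-1 effect was greater by 2.06 on the log2 scale for *Col27a1* (adjusted p = 5.91e-05), 1.59 for *Col11a2* (0.00049), 1.40 for *Col11a1* (0.000504), 1.17 for *Col9a1* (0.00359), 1.14 for *Col9a3* (0.00775) and 1.01 for *Col2a1* (0.0473). The inhibitor and the knockdown were read in separate tables with their own controls, so the kind of treatment and the table cannot be told apart. The DMSO libraries also started from lower levels than the siCtrl libraries. Groups of 3 libraries are too small for a search for single outlying libraries, and none was made.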

How the results depend on the processing

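Over 770 combinations of gene, comparison and alternative, 685 kept their direction and their side of the threshold, 24 passed it anew and 35 lost it. The other 26 changed sign, all in the XAV939 effect minus the knockdown effect, where none of the values concerned was called. For *Col9a2*, −0.0064 as reported, that difference was 0.060 with upper-quartile scaling, 0.032 with the block and 0.15 without replicate 2 of every group, and for *Col11a2*, 0.042 as reported, it was −0.0038 without replicate 2 of every group. Without single libraries it ran from −0.20 to 0.26 for *Col9a2*, −0.11 to 0.19 for *Col11a2*, −0.097 to 0.26 for *Col9a3*, −0.32 to 0.16 for *Col2a1*, −0.27 to 0.041 for *Col9a1* and −0.29 to 0.016 for *Col11a1*. For siTnks/2 the count of collagens called higher, 4 as reported, was 7 with the replicate block, 7 with DESeq2, 0 with glmTreat against a fold change of 1.5, 0 under the limit of more than 3-fold and adjusted p under 1e-05, and 1 to 5 when single libraries were left out (7 without replicate 2 of every group). It was 1 without siCtrl replicate 1 or 3 and 2 without siCtrl replicate 2 or siTnks/2 replicate 1. For XAV939, 4 as reported, it was 6 with the block, 6 with DESeq2, 2 with glmTreat, 0 under the 3-fold limit and 2 to 5 without single libraries, with 2 without DMSO replicate 1. For IWR-1 it was 1 under the 3-fold limit and 7 without any single library. For IWR-1 against XAV939, 7 as reported, it was 4 with glmTreat, 0 under the 3-fold limit and 6 to 7 without single libraries. For the XAV939 effect minus the knockdown effect it was 1 with the block and 0 without any single library, and for IWR-1 minus knockdown 5 to 7. For DESeq2, glmTreat and the fits without a single library no shares of all genes called are given. The counts from those fits therefore have no background here. Under the 3-fold limit 0 of all genes tested passed as higher with siTnks/2, with XAV939 or for IWR-1 against XAV939. The counts of 0 there thus say nothing particular about the collagens. The cause of these shifts was not tested.

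The difference in summed share, 4.32 percentage points for siTnks/2, 1.41 for XAV939, 6.77 for IWR-1 and 5.36 between the inhibitors, became 1.13, 0.282, 1.56 and 1.28 without *Col2a1*, which by construction removes most of the reads. Without single libraries it ran from 2.61 to 5.57, 1.04 to 1.66, 6.20 to 7.20 and 4.79 to 5.79. The count of ratio comparisons without overlap stayed between 22 and 24 of 32 when libraries were left out. With the pairing by replicate number, 28 of 32 ratios had differences of one sign in all 3 pairs, again a count without a background. Beyond the calls given above the block changed no other call of the 7 genes. By Spearman's rho 2 of the 5 genes most like *Col2a1* were shared. Depth did not limit these genes. The number of libraries did, since 3 against 3 cannot give an exact p below 0.1.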
